A study of Mus musculus with 9 samples.

Results

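Integrins and laminins are the receptors and the matrix proteins by which an epithelial cell holds on to its basement membrane. The mouse genes of both families were followed in pancreatic ductal adenocarcinoma (PDAC) cells that carried Yap or had lost it. The members were all protein-coding genes whose symbol names an integrin α subunit, an integrin β subunit or a laminin chain, which gave 36 of the 47643 genes in the files, 25 integrins and 11 laminins. The rule for members reads names and no measured value, but it was written with earlier results of these data known. The 6 integrins that leukocytes carry (Itgal, Itgam, Itgax, Itgae, Itgb2 and Itgb7) were described apart, since they mark blood cells. Counts over all members include them.

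RNA of sorted tumor cells was sequenced from the 3′ end in 9 libraries. KPF mice carried the Flp-dependent tumor alleles of the model, among them Trp53 frt/+, with Pdx-Flp and R26 FSF-CreER/Dual, so that the Flp recombinase, expressed from the Pdx promoter, removed a Trp53 allele and started a dual reporter. KPYYF mice carried the same alleles and Yap flox/flox in addition. Mice of both genotypes received tamoxifen (TAM) in the diet once a tumor could be felt, which activates CreER, turns the cells from GFP to tdTomato (Tm) and, in KPYYF mice only, deletes Yap. The 6 KPF libraries were made from GFP+Yap+ cells, that is, cells that had not recombined under TAM, and the 3 KPYYF libraries from Tm+Yap- cells. The paper describes the sequenced cells as isolated from relapsed nodules of tumors under TAM. It calls the Tm+Yap- nodules highly proliferative and generally poorly differentiated. The groups thus differed at once in genotype, Yap status, CreER activity, reporter color and relapse after Yap loss, which cannot be told apart. Age, sex and time on TAM are not given per library. KPF libraries 4504h and 4504s carry 1 mouse number with different letters, and nothing else says that the libraries are separate tumors, so p values measure the spread between these libraries.

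Integrins are pairs of 1 α and 1 β subunit, and the pair sets the ligand. Integrins α3β1 and α6β4 bind laminins, α6β4 being the receptor of the hemidesmosome, while α2β1 binds collagen and the αv integrins bind matrix proteins with an RGD motif or release TGF-β from its latent form. Laminins are trimers of 1 α, 1 β and 1 γ chain, named by their chains. Laminin-332, which holds the products of Lama3 and Lamb3, is the anchoring laminin of stratified and ductal epithelia, and laminin-511, of Lama5, Lamb1 and Lamc1, is the general laminin of epithelial basement membranes. Several genes of this family, Lamb3, Itga2, Itgb4 and Itgb6 among them, are known markers of ductal and squamous tumor cells. Yap is a transcriptional coactivator that acts through TEAD factors, often together with AP-1, and is itself responsive to adhesion to the matrix.

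Gene reads numbered 8264587 to 9635514 in KPF and 8116539 to 8725132 in KPYYF libraries. Values are given as CPM, gene read counts scaled to a common library size, after TMM normalization, and the limit of detection, 3 counts, stood at 0.292 to 0.437 CPM, which covers counting error only. Because reads come from the 3′ end of transcripts, levels are compared between groups and not between genes. Yap1 itself, the check of the labels, had 41.8, 99.8 and 151 CPM as the lowest, median and highest KPF values and 0.712, 2.84 and 7.12 CPM in KPYYF libraries 4449, 4891 and 4938, and fell with a log2 fold change of -4.79 ± 0.72 (SE, adjusted p = 0.0159, edgeR quasi-likelihood, Benjamini-Hochberg values over 14105 genes). The deleted exons are not given in the sources used here, so 3′ reads of a shortened transcript cannot be told from reads of intact Yap1. Xist had 71 to 159 reads in KPF libraries 4269, 4515 and 4601 and at least 3452 in the other 6 libraries, among them every KPYYF library. Libraries with few Xist reads were thus in KPF only, which also set the groups apart. Of 10 ductal epithelial markers none was at 0 in all libraries, and their summed level was 3579 to 12024 CPM in KPF and 659 to 2181 CPM in KPYYF libraries, without overlap. In sorted bulk samples, fewer cells of a type and less RNA per cell cannot be told apart, and the part of the lower ductal marker level in the integrin and laminin results was not tested. KPF library 4601 stood apart in 17 immune markers, at 11503 CPM in sum, where the other KPF libraries had 611 to 3603 and the KPYYF libraries 566 to 897 CPM.

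The only laminin or integrin gene that passed the adjusted threshold was Lamb3, the β chain found in laminin-332. Sequences around RefSeq starts of Lamb3, and of Itga2, the integrin gene with the smallest p value, are shown because YAP acts through sites in regulatory DNA. They come from RefSeq on GRCm38.p6 and run 5′ to 3′ on the gene's strand, from 250 bases before the start to 50 after it. Lamb3 lies on the plus strand, and its windows are chr1:193301744-193302043 and chr1:193301993-193302292. In GENCODE M21 the gene begins farther upstream, at 193207699, and that start is not shown. The labels upstream and downstream compare the shown windows only. Itga2 lies on the minus strand with its window at chr13:114932051-114932350. Capitals mark matches, on either strand, to the core of a TEAD site (GGAATG), to an AP-1 site (TGANTCA) or to an E-box of the kind that Snail and Zeb factors bind (CAGGTG).
Lamb3, upstream start: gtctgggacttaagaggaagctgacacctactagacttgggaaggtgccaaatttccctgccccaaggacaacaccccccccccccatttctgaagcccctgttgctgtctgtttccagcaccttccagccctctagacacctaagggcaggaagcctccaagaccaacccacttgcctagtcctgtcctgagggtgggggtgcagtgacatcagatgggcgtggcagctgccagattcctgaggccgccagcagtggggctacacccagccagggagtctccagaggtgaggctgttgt
Lamb3, downstream start: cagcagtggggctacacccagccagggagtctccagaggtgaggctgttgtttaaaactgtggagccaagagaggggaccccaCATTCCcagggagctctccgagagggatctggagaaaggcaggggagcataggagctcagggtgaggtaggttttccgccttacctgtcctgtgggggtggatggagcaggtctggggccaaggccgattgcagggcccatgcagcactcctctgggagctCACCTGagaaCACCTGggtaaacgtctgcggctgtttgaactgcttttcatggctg
Itga2: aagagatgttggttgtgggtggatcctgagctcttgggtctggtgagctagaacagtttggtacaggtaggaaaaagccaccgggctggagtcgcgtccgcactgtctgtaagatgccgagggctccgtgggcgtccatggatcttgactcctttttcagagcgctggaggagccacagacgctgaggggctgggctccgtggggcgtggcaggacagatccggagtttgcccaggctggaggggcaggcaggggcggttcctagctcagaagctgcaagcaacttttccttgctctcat

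The downstream Lamb3 window held 1 match to the TEAD core and 2 to the E-box, and neither the upstream Lamb3 window nor the Itga2 window held any of the 3 motifs. RefSeq windows were found for 23 of the 36 genes, 26 windows in all. The TEAD core was present in 3 of these 26 and in 14.7% of all 32851 promoter windows, the AP-1 motif in 3 of 26 and 7.81%, and the E-box in 8 of 26 and 20.2%. These matches describe letters and are not evidence of binding.

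Of the 36 genes, 32 had at least 100 counts over the libraries and were tested. Lamb3 was the 1 gene with an adjusted p under 0.05, lower in KPYYF, and no gene was called higher. Of all 14105 genes tested, 1.10% were called (0.794% lower and 0.305% higher). At an unadjusted p under 0.05, 10 members were lower and 1 was higher, which is 34.4% of the 32 against 16.1% of all genes (10.0% lower and 6.10% higher). All 10 lower members were also more than 2-fold lower, as 9.20% of all genes were, and none was more than 2-fold higher at that p, as 4.20% of all genes were. Among the 10 lower genes were Lamb3, Lama1, Lama5, Itga2, Itga3, Itgb4, Itgb6, Itgb8 and Itgb2, and the higher gene was Lamc1. The libraries of the groups did not overlap in 7 members, 21.9% of those tested against 9.10% of all genes (5.18% lower and 3.92% higher), and in all 7, among them Lamb3, Lama1, Itga2, Itga3, Itgb4 and Itgb8, the KPYYF libraries were the lower ones. The fitted log2 fold change was below 0 in 22 and above 0 in 10 members. Its median was -0.78 against -0.07 over all genes. Without the leukocyte integrins, 27 members were tested and the median was -0.23. Of these 27, 9 were lower and 1 was higher at an unadjusted p under 0.05 (37%), and 7 did not overlap (25.9%). The DESeq2 Wald test gave 8 members an adjusted p under 0.05, all lower, where it called 8.49% of all genes. These 8 were the 7 without overlap and Itgb6. On simulated counts, drawn with the dispersions that edgeR had estimated, DESeq2 made more false calls than edgeR. That setting may favor edgeR. On the same simulated counts, edgeR recovered 26% of 4-fold and 55% of 16-fold changes, and DESeq2 43% and 68%.

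**Figure D1:**
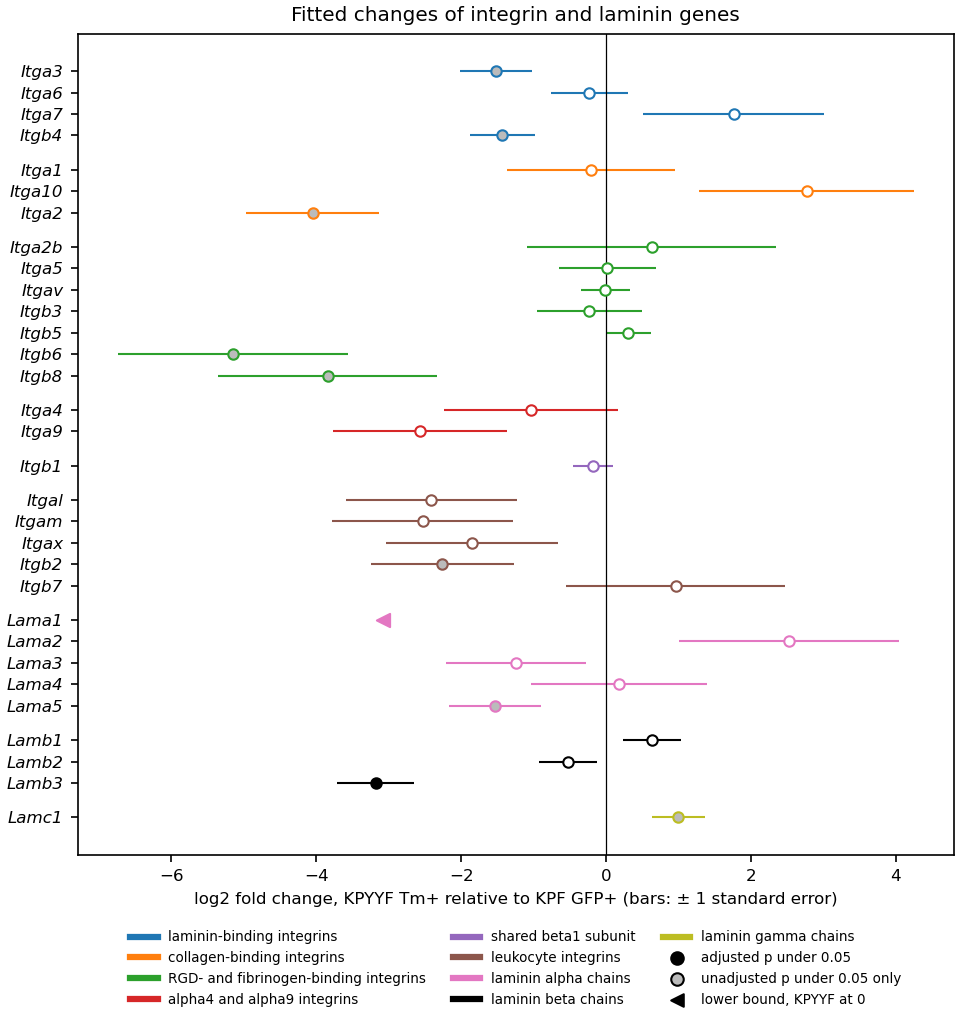
Log2 fold change of integrin and laminin genes that were tested, KPYYF Tm+ relative to KPF GFP+ libraries, with bars of 1 standard error and colors for the role of the gene. A solid point has an adjusted p under 0.05 (Lamb3 only, at -3.18), a grey point an unadjusted p under 0.05 only, and a white point neither, and the arrowhead is the lower bound for Lama1, which had no read in KPYYF libraries.

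Of the chains of laminin-332, the β chain fell and the α chain had a lower fitted value that did not pass. Lamb3 (ENSMUSG00000026639) had 52.3, 63.4 and 114 CPM as the lowest, median and highest KPF values and 14.1, 7.65 and 3.18 CPM in KPYYF libraries 4449, 4891 and 4938. The highest KPYYF library lay well under the lowest KPF library. Lamb3 fell 9.09-fold, from 75.6 ± 27.4 CPM (SD, n = 6) to 8.32 ± 5.51 CPM (SD, n = 3), with a log2 fold change of -3.18 ± 0.53 (SE, adjusted p = 0.0176, edgeR). The adjusted p ran from 0.0117 to 0.0575 when single libraries were left out and was under 0.05 in 6 of 9 such fits. It was 0.0508 without KPF library 4435, 0.0575 without KPYYF library 4891 and 0.0554 without KPYYF library 4938, with log2 fold changes of -3.06, -3.13 and -2.80. With the 6 libraries that held over 1000 Xist reads it was 0.056 at a log2 fold change of -3.21.

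Lama3, the α chain of the same trimer, had 2.33, 15.6 and 27.0 CPM as the lowest, median and highest values in KPF and 14.0, 0.219 and 5.37 CPM in KPYYF libraries. These groups overlapped, and the log2 fold change of -1.24 ± 0.97 (SE, adjusted p = 0.583) was within the spread. KPYYF library 4891 was the lowest of all 9 libraries for Lama3, while KPYYF library 4938 was the lowest for Lamb3.

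The other α chains divided. Lama5, the α chain of laminin-511 and laminin-521, had 69.6, 179 and 274 CPM in KPF and 102, 12.6 and 58.7 CPM in KPYYF libraries. KPYYF library 4449 lay within the KPF range and the other 2 lay under it. The log2 fold change was -1.53 ± 0.63 (SE, unadjusted p = 0.0321, adjusted p = 0.252). Lama1, a chain of the embryonic laminin-111, was counted in each KPF library, at 0.511, 2.62 and 6.32 CPM as lowest, median and highest, and had no read in any KPYYF library. A count of 0 allows up to 3 counts, so the mean level was at least 8.46-fold lower in KPYYF (limit per library), with an unadjusted p of 0.00521 and an adjusted p of 0.123 in the edgeR test.

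Lama2 and Lama4, chains known from muscle, nerve and vessel walls, showed that single KPYYF libraries went their own way. Lama2 had 80.1 CPM in KPYYF library 4891 and 0.237 and 0.548 CPM in the other 2, against 0 to 9.96 CPM in KPF libraries. Its log2 fold change of 2.53 ± 1.52 (SE, adjusted p = 0.461) became -3.52 without library 4891. Lama4 had 0.119, 45.0 and 25.4 CPM in KPYYF libraries and 1.17 to 52.6 CPM in KPF libraries, a log2 fold change of 0.18 ± 1.21 (SE, adjusted p = 0.968) that was -0.70 without KPYYF library 4891. The summed level of 14 fibroblast and pericyte markers was 446 to 5766 CPM in KPF and 1419 to 3368 CPM in KPYYF libraries, and that of 12 endothelial markers 30.1 to 137 and 38.2 to 52.6 CPM. None of these markers was at 0 in all libraries. Of 7 Schwann cell markers, Sox10, Foxd3 and Cdh19 were at 0 in all libraries. The list summed to 77.0 to 114 CPM in KPF and 0.875 to 19.1 CPM in KPYYF. Only 4 of the 7 were counted and 2 were tested, so this sum rests on few genes. The part of these markers in the levels of Lama2 and Lama4 was not tested. A transcript 3′ end of Lama2 also overlapped an exon of a gene on the opposite strand, Gm48084.

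The chains Lamb1, Lamb2 and Lamc1, which most laminins share, passed in neither direction. Lamb1 had 95.5, 239 and 369 CPM in KPF and 224, 427 and 427 CPM in KPYYF libraries. KPYYF libraries 4891 and 4938 exceeded every KPF library, and the log2 fold change was 0.63 ± 0.40 (SE, adjusted p = 0.479). Lamb2 had 70.6, 92.6 and 102 CPM in KPF and 101, 63.6 and 21.0 CPM in the KPYYF libraries, and its log2 fold change was -0.53 ± 0.40 (SE, adjusted p = 0.568) with overlap in library 4449. Lamc1, the γ chain of laminin-511 and most other laminins, had 29.3, 42.8 and 90.0 CPM in KPF and 71.1, 108 and 121 CPM in KPYYF libraries. Here 2 KPYYF libraries lay above every KPF library, and KPF library 4269, at 90.0 CPM, was the only KPF library to exceed KPYYF library 4449. Its log2 fold change was 1.00 ± 0.37 (SE, unadjusted p = 0.0171, adjusted p = 0.193). Lamc3 had 84 counts in all 9 libraries together and was not tested.

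**Figure D2:**
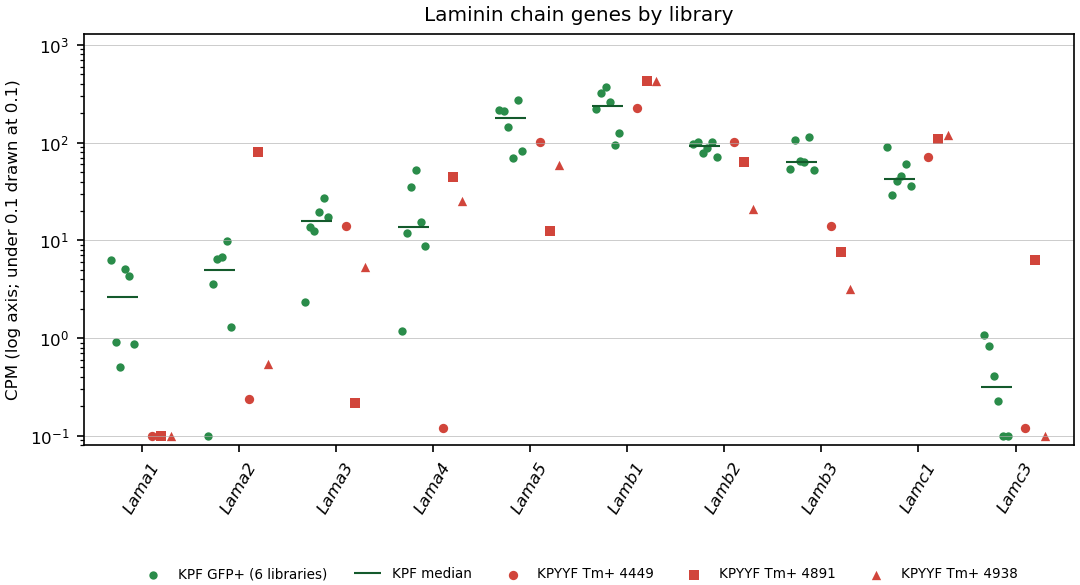
CPM of laminin chain genes in each library on a log axis, with KPF GFP+ libraries as green points, their median as a line, and the 3 KPYYF Tm+ libraries as red symbols. For Lamb3 the KPYYF libraries, at 3.18 to 14.1 CPM, all sit under the lowest KPF library at 52.3 CPM, while for Lamc1 all 3 sit above the KPF median of 42.8 CPM.

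Lamb3 reads can be set against Lamb1 reads within each library, free of normalization. KPF libraries had 0.174 to 1.19 Lamb3 reads per Lamb1 read, with a median of 0.287, and the KPYYF libraries had 0.0630, 0.0179 and 0.00744. All 3 KPYYF values lay under the lowest KPF value. Lamb3 levels alone already showed no overlap, and the change of Lamb1 did not pass. The ratio describes genes chosen with their levels known, and no test was made of it.

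**Figure D3:**
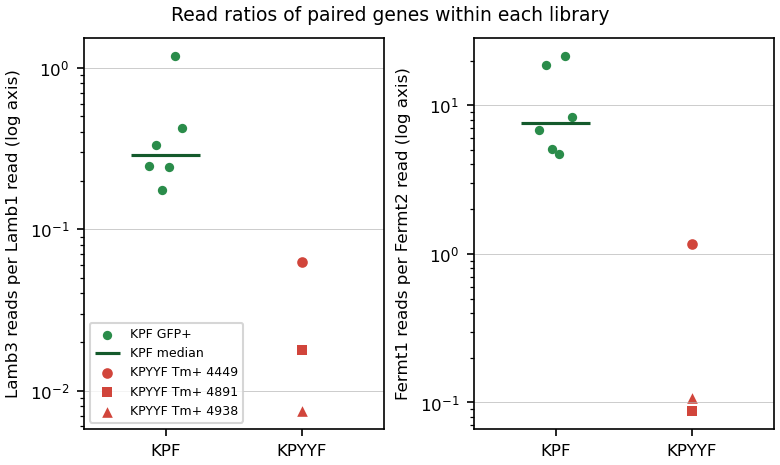
Reads of Lamb3 per read of Lamb1 and of Fermt1 per read of Fermt2 in each library, on log axes, with the KPF median as a line. In each panel the 3 KPYYF Tm+ libraries lie under all 6 KPF GFP+ libraries, for Lamb3 at 0.00744 to 0.0630 against 0.174 to 1.19.

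Among the laminin receptors, the subunits α3 and β4 of epithelial anchorage showed no overlap between groups without passing the adjusted threshold, and the shared subunits overlapped. Itga3, the α subunit of α3β1, had 49.0, 72.6 and 109 CPM in KPF and 48.3, 7.65 and 22.0 CPM in KPYYF libraries. The groups did not overlap, but KPYYF library 4449 lay just under KPF library 4504s. The log2 fold change was -1.52 ± 0.50 (SE, unadjusted p = 0.00941, adjusted p = 0.156, edgeR). Without KPYYF library 4449 it was -2.33 with an adjusted p of 0.0417, the only 1 of 9 left-out fits under 0.05. It was -1.09 (adjusted p = 0.296) without KPYYF library 4891 and -1.42 (adjusted p = 0.331) without KPYYF library 4938. Itgb4, the β4 subunit of the hemidesmosome, had 43.2, 89.7 and 116 CPM in KPF and 41.8, 11.0 and 41.1 CPM in KPYYF libraries. These groups too were apart by a small margin, between KPF library 4269 and KPYYF library 4449. Its log2 fold change was -1.43 ± 0.45 (SE, unadjusted p = 0.00764, adjusted p = 0.142).

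Itga6, the α subunit that pairs with β4 or β1, had 208, 459 and 737 CPM in KPF and 263, 117 and 820 CPM in KPYYF libraries. KPYYF libraries held both the lowest and the highest value of all 9, and the log2 fold change of -0.23 ± 0.53 (SE, adjusted p = 0.889) became 0.20 without library 4891. Itgb1, the β1 subunit that pairs with most α subunits, had 400, 516 and 692 CPM in KPF and 336, 466 and 649 CPM in KPYYF libraries. Its log2 fold change of -0.18 ± 0.28 (SE, adjusted p = 0.822) was 0.03 without KPYYF library 4449. Itga7, the laminin receptor of muscle, had 0.102 to 5.47 CPM in KPF libraries and 27.5 CPM in KPYYF library 4938, with 0.356 and 1.53 CPM in the other 2, and its log2 fold change of 1.76 ± 1.25 (SE, adjusted p = 0.539) became -1.59 without library 4938. A transcript 3′ end of Itga7 overlapped an exon of Mettl7b on the opposite strand.

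Of the collagen-binding subunits, Itga2 came closest to the threshold. This α2 subunit had 10.6, 20.1 and 55.4 CPM in KPF and 1.90, 0.109 and 2.85 CPM in KPYYF libraries. The highest KPYYF value was well under the lowest KPF value. The log2 fold change was -4.05 ± 0.92 (SE, unadjusted p = 6.70e-04), with an adjusted p of 0.0531 that just missed the threshold, and it was 2.35e-05 with DESeq2, 0.00695 without the filter on low counts and 0.179 with limma-voom. Itga1, the other collagen-binding α subunit of epithelium and stroma, lies 21.0 kb from Itga2 on chromosome 13 and had 1.26 to 9.94 CPM in KPF and 0.119 to 11.7 CPM in KPYYF libraries, with a log2 fold change of -0.21 ± 1.16 (SE, adjusted p = 0.959) that ran from -2.10 without KPYYF library 4891 to 0.36 without KPYYF library 4449. Itga10, known from cartilage, reached 36.1 CPM in KPYYF library 4891 against at most 6.15 CPM in KPF libraries, and was at 0 in library 4449 (log2 fold change 2.77 ± 1.48, SE, adjusted p = 0.391). Itga11, a fibroblast collagen receptor, had 55 counts in all, 36 of them in KPYYF library 4891, and was not tested.

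In the RGD-binding group, the subunits that activate latent TGF-β on epithelia had lower fitted values in KPYYF that did not pass. Of these, Itgb6 overlapped between groups, as the general subunits did. Itgb6, the β6 subunit of αvβ6, had 0.204, 16.6 and 35.6 CPM in KPF and 1.42, 0 and 0.110 CPM in KPYYF libraries. KPF library 4504h, at 0.204 CPM, was the only KPF library among the KPYYF values, and the next KPF library was at 7.73 CPM. The fitted log2 fold change was -5.15 ± 1.59 (SE, unadjusted p = 0.00708, adjusted p = 0.139), and without library 4504h it was -5.41 with an adjusted p of 0.0581. Itgb8, the β8 subunit of αvβ8, had 1.36, 3.88 and 12.1 CPM in KPF and 0, 0.656 and 0.329 CPM in KPYYF libraries, without overlap. Its log2 fold change was -3.84 ± 1.51 (SE, unadjusted p = 0.0240, adjusted p = 0.223), and the KPYYF levels lay near the limit of detection.

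Itgav, the αv subunit with which β6 and β8 pair, had 62.2, 99.3 and 138 CPM in KPF and 149, 80.0 and 61.8 CPM in KPYYF libraries. The KPYYF libraries spanned the KPF range, and the log2 fold change of -0.01 ± 0.34 (SE, adjusted p = 0.994) changed sign with the normalization. Itgb5, the β5 subunit of the vitronectin receptor, had 42.7, 74.9 and 93.3 CPM in KPF and 116, 67.7 and 81.4 CPM in the KPYYF libraries, and its log2 fold change was 0.31 ± 0.31 (SE, adjusted p = 0.695). Itga5, the α subunit of the fibronectin receptor, had 6.23 to 38.5 CPM in KPF and 6.89 to 33.4 CPM in KPYYF, with a log2 fold change of 0.02 ± 0.67 (SE). Itgb3, the β3 subunit, had 8.27 to 93.0 and 18.0 to 45.2 CPM, with a log2 fold change of -0.23 ± 0.72 (SE) that was 0.36 without KPF library 4435 and 0.02 without KPYYF library 4891. Both genes overlapped, and the Itga5 value ran from -0.56 without KPYYF library 4938 to 0.43 without KPYYF library 4449. Itga2b, the platelet αIIb subunit, reached 17.5 CPM in KPF library 4601 and 10.2 CPM in KPYYF library 4449, with a log2 fold change of 0.63 ± 1.72 (SE) that was 2.22 without library 4601. Of 7 platelet markers, 3 were at 0 in all libraries, Gp9 and Gp6 among them, and the sum was 234 CPM in library 4601, 4.77 to 29.5 CPM in the other KPF libraries and 17.2 to 83.5 CPM in the KPYYF libraries. Its part in the Itga2b level was not tested. Itga8 had 40 counts in all, at most 26 in 1 library, and was not tested.

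Itga4 and Itga9, which bind fibronectin and VCAM-1 or tenascin, had adjusted p values of 0.741 and 0.316. Itga9 had 0.0973 to 21.0 CPM in KPF and 1.19, 3.72 and 0.767 CPM in the KPYYF libraries, and its log2 fold change was -2.57 ± 1.20 (SE). Its KPYYF libraries all lay under the KPF median of 11.2 CPM, but KPF library 4269 was lower than any of them. Itga4 had 1.94 to 48.7 CPM in KPF and 0.548 to 12.5 CPM in KPYYF libraries, with the highest value in KPF library 4601, and its log2 fold change of -1.03 ± 1.20 (SE) was 0.60 without that library. A transcript 3′ end of Itga4 overlapped an exon of Cerkl on the opposite strand.

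**Figure D4:**
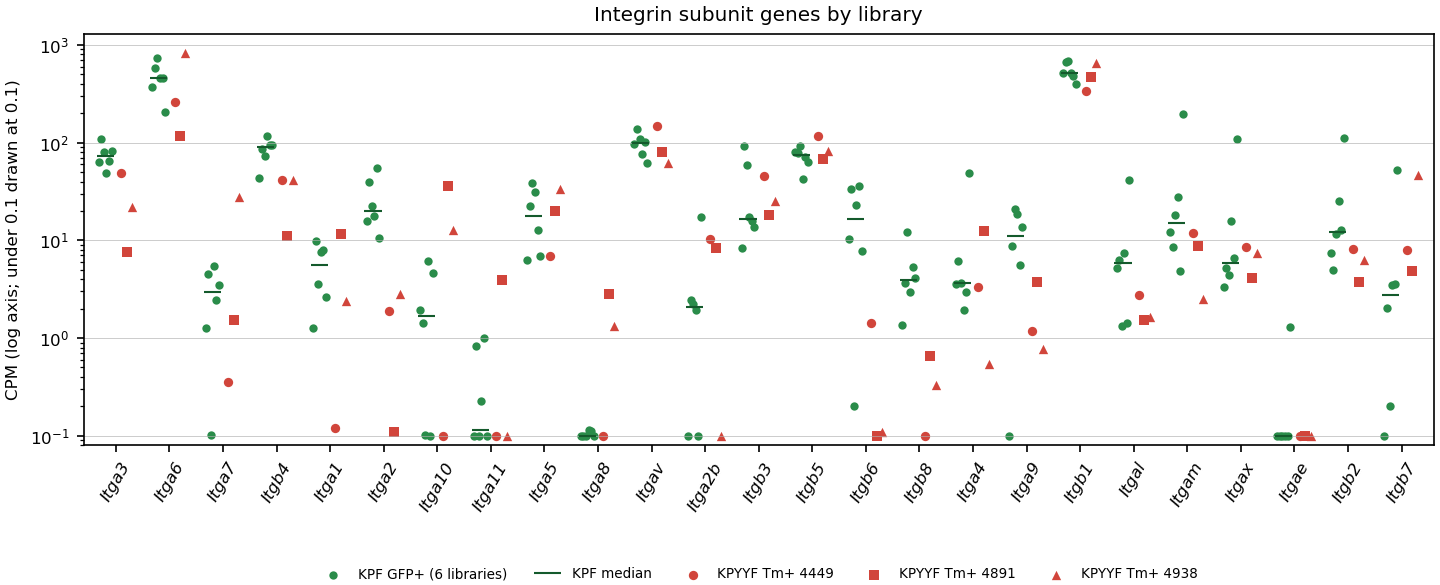
CPM of the 25 integrin genes in each library on a log axis, ordered by role, with KPF GFP+ libraries as green points, their median as a line, and the 3 KPYYF Tm+ libraries as red symbols. Itga2 (at most 2.85 CPM in KPYYF against at least 10.6 CPM in KPF) and Itgb8 show no overlap, Itgb6 overlaps by KPF library 4504h alone, and the groups overlap in Itgb1 and Itgav.

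All 6 leukocyte integrins were highest in KPF library 4601. Itgb7 was nearly as high in KPYYF library 4938, which had the lowest summed immune marker level, at 566 CPM. Itgb2, the β2 subunit shared by the leukocyte receptors, had 5.02, 12.1 and 111 CPM in KPF and 8.07, 3.72 and 6.25 CPM in KPYYF libraries. The groups overlapped, and the log2 fold change of -2.26 ± 0.99 (SE, unadjusted p = 0.0411, adjusted p = 0.279) was -1.03 with an unadjusted p of 0.184 without library 4601. Its partners Itgal, Itgam and Itgax reached 41.3, 196 and 110 CPM in library 4601, and without it their log2 fold changes of -2.41, -2.53 and -1.85 were -1.12, -0.88 and -0.06. Itgae had 9 counts, all in library 4601, and was not tested. Itgb7 had 52.5 CPM in library 4601 and 47.0 CPM in KPYYF library 4938, and its log2 fold change of 0.96 ± 1.51 (SE, adjusted p = 0.826) was 3.43 with an unadjusted p of 0.00908 and an adjusted p of 0.161 without library 4601, and -0.69 without KPYYF library 4938.

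Summed over the 6 genes, the leukocyte integrins had 513 CPM in library 4601, 27.3 to 80.1 CPM in the other 5 KPF libraries, and 23.0 to 64.9 CPM in the 3 KPYYF libraries. The 17 immune markers summed to 11503 CPM in library 4601, and all 17 were counted in at least 1 library. Their part in the leukocyte integrin values was not tested. Itgam lies 11.1 kb from Itgax on chromosome 7. A transcript 3′ end of Itgam overlapped an exon of Gm49368 on the same strand in GENCODE M21. How reads in the overlap were counted is not given.

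**Figure D5:**
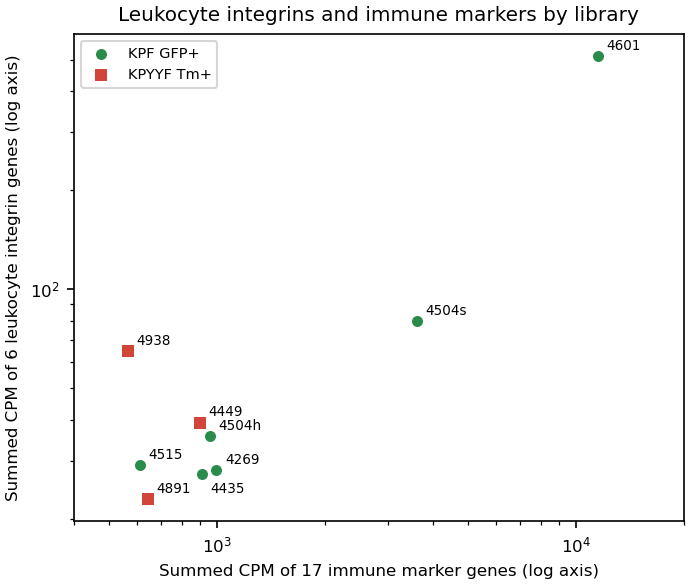
Summed CPM of the 6 leukocyte integrin genes against summed CPM of 17 immune marker genes in each library, both on log axes, with KPF GFP+ as green circles and KPYYF Tm+ as red squares labelled by mouse number. KPF library 4601, at 513 and 11503 CPM, stands apart from the other 8 libraries, which lie at 23.0 to 80.1 and 566 to 3603 CPM.

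Proteins on the inner side of integrins were described from a list of 30 focal adhesion genes, all of which were tested. Of these, 1 was called lower and none higher, and at an unadjusted p under 0.05, 6 were lower and 1 was higher, with a median log2 fold change of -0.33. Of all genes tested, 0.794% were called lower and 0.305% higher, and 10.0% and 6.10% were lower and higher at an unadjusted p under 0.05. The gene called was Fermt1, kindlin-1, which binds the tails of integrin β subunits in epithelia. It had 131, 278 and 695 CPM in KPF and 45.8, 8.20 and 9.21 CPM in KPYYF libraries, without overlap. Fermt1 fell with a log2 fold change of -3.91 ± 0.78 (SE, adjusted p = 0.0422, edgeR). The adjusted p was 0.0379 without KPF library 4601 and 0.0114 without KPYYF library 4449, and was 0.0553 to 0.137 when any of the other 7 libraries was left out. It was 0.0636 with the libraries 4504h and 4504s added up as a single mouse, 0.0922 without the filter on low counts and 0.0953 with the 6 libraries that held Xist. Fermt2, the kindlin found in most other cell types, had 15.6, 30.9 and 63.2 CPM in KPF and 39.3, 94.1 and 86.1 CPM in the KPYYF libraries, and its log2 fold change was 1.09 ± 0.47 (SE, unadjusted p = 0.0377, adjusted p = 0.272). KPF libraries had 4.70 to 21.6 Fermt1 reads per Fermt2 read and the KPYYF libraries had 1.17, 0.0871 and 0.107. These genes too were chosen with their levels known, and their ratio was not tested. Tns4, a tensin of the adhesion plaque, and Nedd9, a scaffold downstream of focal adhesion kinase, had log2 fold changes of -1.66 ± 0.74 (SE, adjusted p = 0.298) and -1.24 ± 0.29 (SE, adjusted p = 0.0596).

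Of 19 partners of the hemidesmosome and the basement membrane, 16 were tested, and none was called in either direction by edgeR. At an unadjusted p under 0.05, 4 were lower and 0 higher, against 10.0% and 6.10% of all genes, and DESeq2 called 3 lower, where it called 8.49% of all genes in either direction. The median log2 fold change was -0.30. The largest of the lower values were those of Bcam, a receptor for laminin α5, with -2.31 ± 0.79 (SE, adjusted p = 0.168), of Agrn, a basement membrane proteoglycan, with -1.88 ± 0.46 (SE, adjusted p = 0.0734), and of Cd151, the tetraspanin bound to α3β1 and α6β4, with -1.10 ± 0.35 (SE, adjusted p = 0.141). Cd151 had 108 to 216 CPM in KPF and 88.3, 39.8 and 92.5 CPM in KPYYF libraries, without overlap. Bcam and Agrn overlapped.

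Of 17 other ligands of integrins, 15 were tested, 2 were called lower and none higher, against 0.794% and 0.305% of all genes, and the median log2 fold change was -0.54. At an unadjusted p under 0.05, 6 were lower and 0 higher (10.0% and 6.10% of all genes), and the KPYYF libraries of 5 lay under all KPF libraries (5.18% of all genes). Cdh1, E-cadherin, which αEβ7 binds on epithelia and which is also among the ductal markers, had 333, 1050 and 2105 CPM in KPF and 245, 98.3 and 94.0 CPM in KPYYF libraries and fell with a log2 fold change of -2.92 ± 0.55 (SE, adjusted p = 0.0351). Icam1, the ligand of the β2 integrins, had 28.5, 52.8 and 91.2 CPM in KPF and 13.4, 7.33 and 2.85 CPM in KPYYF libraries and fell with a log2 fold change of -2.75 ± 0.56 (SE, adjusted p = 0.0357). Neither gene showed overlap. The adjusted p of Cdh1 was 0.0122 to 0.112 and that of Icam1 0.0231 to 0.119 when single libraries were left out, with 4 and 3 of 9 such fits under 0.05. Both lost the call without KPF library 4269, 4435 or 4504s or KPYYF library 4891 or 4938, and Icam1 also without KPF library 4515. Postn, periostin, a ligand of αv integrins, had 9.18, 54.3 and 106 CPM in KPF and 0, 2.84 and 2.52 CPM in KPYYF libraries, also without overlap, and its log2 fold change of -4.78 ± 1.22 (SE, adjusted p = 0.0933) did not pass.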

How the data were processed

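RNA of sorted GFP+Yap+ KPF (6 libraries) and Tm+Yap- KPYYF cells (3 libraries) was sequenced with the Lexogen QuantSeq 3′ Fwd kit. The authors deposited raw read counts per Ensembl gene, without normalization, and the submitters' processing notes name STAR, HTSeq and the build mm10, with versions and annotation not given in the sources used here. The methods section describes BeadChips, but the values are whole-number counts. Of the reads, 37.3 to 42.0% were on genes, 43.8 to 53.4% not unique, 8.63 to 16.0% outside features and 0.231 to 0.312% ambiguous, and only gene reads entered library sizes. Symbols (47224) came from GENCODE M21. The 14105 genes that reached 100 counts in sum were tested with edgeR 4.0.16 (TMM, robust quasi-likelihood, two-sided, Benjamini-Hochberg threshold 0.05) in R 4.3.3. Standard errors (SE) are fold changes on the log2 scale over the root of F.

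The members and lists were chosen with earlier results of these data known. Members with an unadjusted p under 0.05 or a mean of at least 50 CPM are given with the value of each KPYYF library. So are list genes with an adjusted p under 0.05. For KPF, their lowest, median and highest values are given. The 3 largest rises and falls with an unadjusted p under 0.05 in each list are named. Itga1, Itga5, Itgb3, Lama3, Itga10, Itga9, Itga4, Itga7, Lama2, Lama4, Itgb7, Itgal, Itgam, Itgax and Itga2b were given values after these were seen. Alternatives were DESeq2 1.42.0, RLE and upper quartile normalization, no filter, filterByExpr, limma-voom (limma 3.58.1), 4504h and 4504s summed, libraries with over 1000 Xist reads, the rule of the methods (unadjusted p under 0.05 and over 2-fold) and each library left out. The fits were tested on simulated data, where DESeq2 made more false calls than edgeR and exceeded its nominal rate. These counts were drawn with the dispersions and library sizes of the edgeR fit, which may favor edgeR. Motifs were searched on both strands of RefSeq promoter windows. Figures used matplotlib 3.10.9. The values of some single genes and an allele of the model are not reported here.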

Additional observations from a re-analysis of the deposited data

Results flagged for a closer look

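In the 6 KPF libraries, 4 of the 32 tested genes had a library whose log2 level lay farther from the others than Dixon's 95% limit, and chance flags about 1 in 20 groups. Itga4 was high in library 4601, at 48.7 CPM, the library that was also highest in immune markers. Itga9 was low in library 4269, at 0.0973 CPM, and so was Lama3, at 2.33 CPM. Itgb6 was low in library 4504h, at 0.204 CPM, where library 4504s, which has the same mouse number with another letter, had 22.8 CPM. The low Itga9 and Itgb6 values rest on 1 and 2 counts, under the limit of detection. Their distance on the log2 scale is therefore not resolved. The share of all genes flagged in this way is not given here.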

How the results depend on the processing

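Of 289 values of 17 members under alternatives, 265 kept their direction and their side of the threshold, 4 lost the call, 10 gained it and 10 changed sign. Integrin and laminin genes called lower numbered 1, and 8 with DESeq2, 2 without the filter, 10 by the rule of the methods, 0 with the Xist libraries only and 0 to 2 when single libraries were left out. Those higher at an unadjusted p numbered 1, and 2 without the filter, 2 with the Xist libraries and 0 to 2 with libraries left out. Adhesion list genes called lower numbered 3, and 12 with DESeq2, 0 with the Xist libraries and 0 to 5 with libraries left out. Of all genes, 43 were called higher, and 269 with DESeq2, 88 without the filter, 25 with 4504h and 4504s summed, 7 with the Xist libraries, 592 by the rule of the methods and 6 to 75 with libraries left out. Those called lower numbered 112, and 928 with DESeq2, 219 without the filter, 39 with limma-voom, 38 with the Xist libraries, 1298 by the rule of the methods and 13 to 194 with libraries left out. Itgav changed sign with DESeq2 (0.01), RLE (0.01) and upper quartile (0.00) and ran from -0.46 to 0.23 with libraries left out, Itga6 from -1.31 to 0.20 and Itgb1 from -0.45 to 0.03. The cause of these differences was not tested, except that fewer libraries enter the Xist and left-out fits. No paired analysis was possible because the groups share no mouse number. With 3 KPYYF libraries and a common biological coefficient of variation of 0.825, changes of genes near 3 counts cannot be resolved, and a missed threshold does not show that levels are alike.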
